A study of Mus musculus with 2 samples.

Results

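The creatine genes are 7 genes: the 4 creatine kinases Ckb, Ckm, Ckmt1 and Ckmt2, the creatine transporter Slc6a8, and the synthesis enzymes Gatm and Gamt. They were chosen by symbol, by matching the Ensembl gene identifiers of the files, without version, to GENCODE names, and all 7 were found among 43346 Ensembl genes, of which 21474 are protein-coding. The libraries are total RNA of embryonic day 13.5 hearts from B6NCrl mice, a C57BL/6N substrain, with no treatment or mutation named. The 2 biological replicates form 1 group; embryos of both sexes were pooled for each, and both are listed under the same donor entry. The input was 10 ng of RNA longer than 200 nt, with spike-in RNA added. No contrast between conditions exists, so levels and ratios are described, with the spread over the 2 libraries. No p-value was computed.

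Creatine kinases move a phosphate group between ATP and creatine. In muscle and brain, where ATP use rises and falls quickly, phosphocreatine serves as a store that restores ATP within the cytosol. Mitochondrial kinases sit between the inner and outer mitochondrial membranes, next to the adenine nucleotide carriers, and use exported ATP to make phosphocreatine. Cytosolic kinases, which form dimers of M (muscle) and B (brain) subunits, use it to regenerate ATP at the sites of demand. Creatine itself is made in 2 steps, by Gatm and then Gamt, or is taken up from the blood by Slc6a8. In the heart of rodents a shift from B to M subunits during development is a textbook feature of this family.

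Depth was similar, with 36733400 estimated reads for replicate 1 and 36060765 for replicate 2, of which 34545778 and 35137136 fell in Ensembl genes. The unit of level is TPM, a transcript abundance that is corrected for length and scaled to a fixed total per library. For a 1 kb transcript, 1 TPM stood for 29.3 and 27.4 reads. Spike-ins took 11.1% of all TPM in replicate 1 and 5.04% in replicate 2, and the median log2 ratio of TPM between the libraries was 0.15. An SD of TPM therefore also carries this general shift, whereas a ratio within a library does not. All 10 cardiomyocyte markers were at 1 TPM or more in both libraries, with summed levels of 27135 and 32296 TPM.

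The 4 kinases are close relatives, and the sequences printed here show how alike their messages are, since this bears on whether short reads can be told apart. The proteins translated from GENCODE M21 transcripts have 381 residues for Ckb and Ckm, 418 for Ckmt1 and 419 for Ckmt2. Ckb and Ckm shared 79.0% of 381 aligned residues, and Ckmt1 and Ckmt2 shared 78.7% of 418. A cytosolic and a mitochondrial kinase shared between 65.8% and 66.6%. The first set is the 60 coding bases in which Ckb and Ckm are most alike. It covers codons 200 to 219 of Ckb and Ckm and codons 234 to 253 of Ckmt1 and Ckmt2, with capitals where a base differs from Ckb.
Ckb: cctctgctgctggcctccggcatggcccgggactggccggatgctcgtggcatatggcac
Ckm: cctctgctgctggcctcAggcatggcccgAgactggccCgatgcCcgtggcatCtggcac
Ckmt1: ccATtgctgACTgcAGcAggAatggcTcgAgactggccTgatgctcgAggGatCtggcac
Ckmt2: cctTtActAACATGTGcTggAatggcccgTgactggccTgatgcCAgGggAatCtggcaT
Each is the coding strand, 5′ to 3′, on GRCm38, and each stretch spans 2 exons, so its genomic range includes an intron: chr12:111670282-111670928 (minus strand), chr7:19416835-19419442 (plus), chr2:121360933-121361109 (plus) and chr13:91859315-91859914 (minus). Even here Ckm differed from Ckb at 5 of 60 bases, Ckmt1 at 15 and Ckmt2 at 20.

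The second set is the 60 coding bases in which the mitochondrial kinases are most alike, inside 1 exon of each, with capitals where Ckmt1 differs from Ckmt2. It covers codons 89 to 108 in both, at chr13:91863166-91863225 (minus strand) for Ckmt2 and chr2:121359691-121359750 (plus strand) for Ckmt1.
Ckmt2: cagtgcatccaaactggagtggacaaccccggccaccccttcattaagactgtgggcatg
Ckmt1: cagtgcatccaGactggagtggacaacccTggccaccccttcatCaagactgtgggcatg
This pair differed at 3 bases. The longest run of identical aligned coding bases was 39 nt for Ckmt1 and Ckmt2, 20 nt for Ckb and Ckm, and between 15 and 17 nt for the other pairs. No kinase shared a window of 50 nt with another kinase in M21 transcripts. Reads could be shared with other features instead. Windows were counted over all M21 transcripts of a gene, while the files hold 1 transcript each for Ckb and Ckm. The window shares are therefore not shares of the counted reads. Of 3125 windows of 50 nt in Ckb transcripts, 309 (9.89%) also occurred in Gm12892, a processed pseudogene at chr4:122008193-122009338, which held 16.5 and 26.3 estimated reads. Of 2904 windows in Ckm, 315 (10.8%) lay in A930016O22Rik, an antisense gene at chr7:19417466-19421417 that overlaps Ckm on the other strand and held 9.62 and 14.4 reads. The estimated counts of Ckb and Ckm were not whole numbers, while those of the other 5 genes were. No source used here states whether strand was used in counting. Reads from the sequence that Ckm shares with its antisense partner therefore cannot be told apart.

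Cytosolic kinases were by far the most abundant of the family. Ckb, the brain-type subunit (ENSMUSG00000001270, chr12:111669361-111672338, minus strand), stood at 215 and 258 TPM in replicates 1 and 2, from 8684 and 9746 reads. Its mean of 236 ± 30.4 TPM (SD, n = 2) was rank 497 of 21474 protein-coding genes. In level it lay between the connexin gene Gja1 at 236 TPM and the tropomyosin gene Tpm3 at 236 TPM. In bulk tissue, fewer cells of a type and less RNA per cell cannot be told apart. The deposited interval, a credibility range for TPM of unstated level, was 206 to 215 TPM in replicate 1 and 248 to 258 TPM in replicate 2. Replicate 2's TPM lay just above its own interval.

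Ckm, the muscle-type subunit (ENSMUSG00000030399, chr7:19404776-19422841, plus strand), was at 172 and 218 TPM, from 6626 and 7847 reads. Its mean was 195 ± 32.3 TPM (SD, n = 2), rank 603, between Birc5 and Fhl2, both at 195 TPM. Within each library Ckb was higher than Ckm, by 1.25-fold in replicate 1 and 1.19-fold in replicate 2 (log2 ratio 0.28 ± 0.05, SD, n = 2). The deposited intervals of the pair did not overlap in either library. Across libraries the values did overlap, since Ckm in replicate 2 was above Ckb in replicate 1. Ckb supplied 55.6% and 54.2% of the cytosolic kinase TPM, so neither message dominated in the bulk RNA. Protein subunits were not measured. The small gap between Ckb and Ckm also rests on the transcript lengths used for TPM, 1478 nt for Ckb and 1415 nt for Ckm. An M21 transcript of Ckm has 2742 nt, and the ratio with other lengths was not tested.

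Markers of other tissues that use these kinases were read beside them. Of 12 skeletal muscle markers, 7 were at 1 TPM or more in both libraries, and the list summed to 596 and 752 TPM, most of it from Myl1 (323 and 380 TPM) and Acta1 (227 and 309 TPM), which embryonic heart also expresses. Of the other contractile genes of the list, Tnni2 was at 25.6 and 31.6 TPM and Mylpf at 11.4 and 19.2 TPM, at or above the level of Ckmt2. Tnnt3 was at 3.13 and 4.47 TPM, Actn3 at 3.02 and 2.30 TPM, Myh3 at 0.58 and 1.30 TPM, and Myh8 at 0.36 and 0.45 TPM. Among the myogenic regulators, Myod1 was at 0.33 and 0.52 TPM, Myf5 at 0.09 and 0.13 TPM, Myf6 at 0.30 and 0.06 TPM, and Myog at 1.15 and 2.90 TPM. Of 8 neuron markers, 4 were at 1 TPM or more in both libraries, with sums of 14.6 and 17.0 TPM. These were Stmn2 at 4.70 and 6.57 TPM, Tubb3 at 3.82 and 3.32 TPM, Elavl4 at 2.40 and 3.13 TPM, and Map2 at 2.07 and 2.68 TPM. The other 4 neuron markers ranged from 0.01 TPM (Neurod1, both libraries) to 0.76 TPM (Dcx, replicate 1). Of 6 smooth muscle markers, 5 were at 1 TPM or more in both libraries, with sums of 1238 and 1444 TPM. Most of this came from Acta2, at 956 and 1093 TPM. Cnn1 was at 123 and 156 TPM, Tagln at 93.7 and 129 TPM, and Smtn at 61.9 and 63.2 TPM. Myh11 was at only 2.14 and 2.54 TPM, and Lmod1 at 0.97 and 1.11 TPM. No marker of these lists was listed at 0 in both libraries. The part of these cells in the levels of Ckb and Ckm was not tested.

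**Figure D1:**
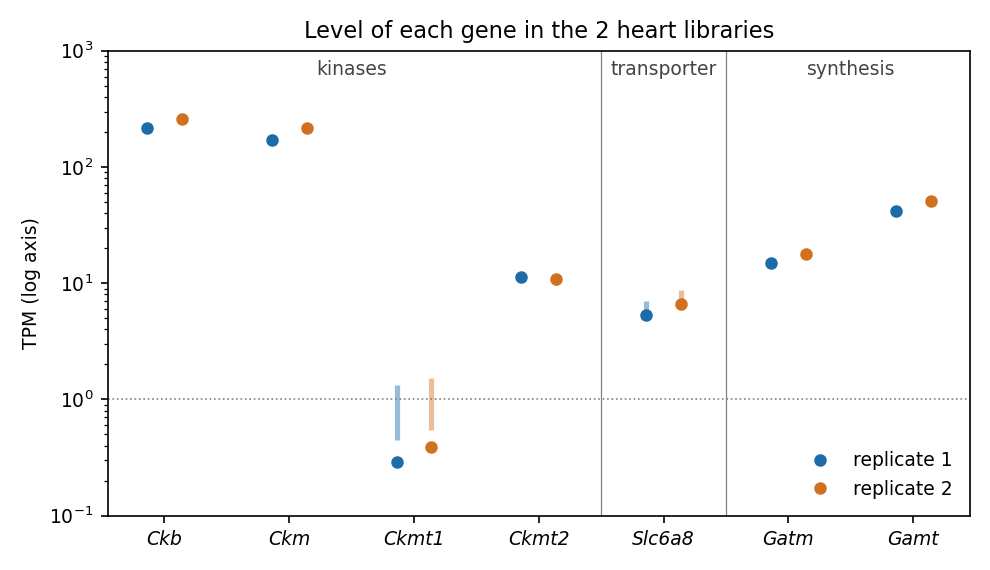
TPM of the 7 genes (log axis) in replicate 1 (blue) and replicate 2 (orange); points are the deposited TPM and shaded bars the deposited interval. Ckb and Ckm sit near 200 TPM, and Ckmt1 is the only gene under the dotted line at 1 TPM, with both its points below their bars.

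Mitochondrial kinase message was scarce beside the cytosolic forms. Ckmt2, the sarcomeric mitochondrial kinase of heart and skeletal muscle (ENSMUSG00000021622, chr13:91853387-91876885, minus strand), was at 11.4 and 10.9 TPM, from 462 and 416 reads. Its mean of 11.2 ± 0.30 TPM (SD, n = 2) ranked 7147, between Ippk and Adck2. Replicate 2 was the lower of the libraries, unlike for the other 6 genes. A further antisense gene, 1700119I11Rik, overlaps Ckmt2 and held 1 read and 0 reads.

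Ckmt1, the ubiquitous mitochondrial kinase typical of brain and epithelia (ENSMUSG00000000308, chr2:121357714-121363737, plus strand), was at 0.29 and 0.39 TPM. It had 11 reads in each library, for which the exact Poisson 95% interval is 5.49 to 19.7 reads. Such an interval covers counting error only, because copies of 1 molecule made by PCR cannot be recognised in these reads. The mean was 0.34 ± 0.07 TPM (SD, n = 2), rank 13962. The deposited intervals of 0.449 to 1.34 and 0.546 to 1.53 TPM lay above these values, and the deposited posterior means were 0.88 and 1.02 TPM. At this depth the message was detected, but its level depended on which deposited estimate was read.

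Ckmt2 exceeded Ckmt1 by 39.2-fold in replicate 1 and 28.1-fold in replicate 2 (log2 ratio 5.05 ± 0.34, SD, n = 2). With posterior means in place of TPM this became 12.7-fold and 10.5-fold, the same direction at a smaller size. Ckm exceeded Ckmt2 by 15.1-fold and 19.9-fold, and Ckb exceeded Ckmt2 by 18.9-fold and 23.6-fold. Summed, the cytosolic kinases stood 33.2-fold and 41.9-fold above the mitochondrial ones (log2 ratio 5.22 ± 0.24, SD, n = 2). Of all kinase TPM, which summed to 398 and 487, Ckb held 53.9% and 53.0%, Ckm 43.1% and 44.7%, Ckmt2 2.85% and 2.25%, and Ckmt1 0.073% and 0.080%. The largest shift of a share between the libraries was 1.56 percentage points, in Ckm.

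The creatine transporter was expressed at a modest level. Slc6a8, which carries creatine into cells with sodium and chloride (ENSMUSG00000019558, chrX:73673150-73682502, plus strand), was at 5.31 and 6.56 TPM, from 423 and 469 reads. The mean was 5.94 ± 0.88 TPM (SD, n = 2), rank 9146, between Prob1 and Cep350. The intervals of 5.27 to 6.97 and 6.54 to 8.83 TPM held these values close to their lower ends.

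The largest part of the Slc6a8 TPM was assigned to a transcript that GENCODE does not class as protein-coding. Slc6a8-202, annotated as a target of nonsense-mediated decay (2729 nt, chrX:73676846-73682502), took 55.6% and 54.7% of the gene's TPM (55.2 ± 0.61%, SD, n = 2). It begins inside the gene, downstream of the start of the coding forms. The 6 protein-coding transcripts together took 31.1% and 32.0%, and retained-intron forms took 13.3% in both libraries. Among the coding forms, Slc6a8-203 had 13.6% and 27.8%, and Slc6a8-201 had 17.6% and 4.21%, so the split between these 2 was not stable although their class total was. Of 13 listed transcripts, 6 were at 0 in both libraries. The transcripts share exons, and the estimate divides reads among them.

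Both synthesis enzymes were expressed, with the enzyme of the second step higher. Gatm, the arginine:glycine amidinotransferase that makes guanidinoacetate (ENSMUSG00000027199, chr2:122594467-122611303, minus strand), was at 15.0 and 17.9 TPM, from 997 and 1118 reads. Its mean was 16.5 ± 2.1 TPM (SD, n = 2), rank 5873, between Napg and Cln3. Gamt, the methyltransferase that turns guanidinoacetate into creatine (ENSMUSG00000020150, chr10:80258151-80261012, minus strand), was at 41.4 and 50.9 TPM, from 1072 and 1220 reads. Its mean was 46.2 ± 6.7 TPM (SD, n = 2), rank 2652, between Arfrp1 and Fbxo22. Gamt lay above Gatm by 2.76-fold and 2.84-fold (log2 ratio of Gatm over Gamt −1.49 ± 0.03, SD, n = 2), and no value of one overlapped a value of the other.

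Each synthesis enzyme was carried by 1 coding transcript. Gatm-201 took 98.9% and 99.0% of its gene's TPM among 3 transcripts. Gamt-202 took 93.6% and 88.5% among 4, with retained-intron forms at 4.36% and 7.22%. Ckb, Ckm and Ckmt2 have 1 transcript each in the files, so their shares carry no information. The leading Ckmt1 transcript, Ckmt1-202, took 88.4% in replicate 1 and 23.0% in replicate 2, from 11 reads each.

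**Figure D2:**
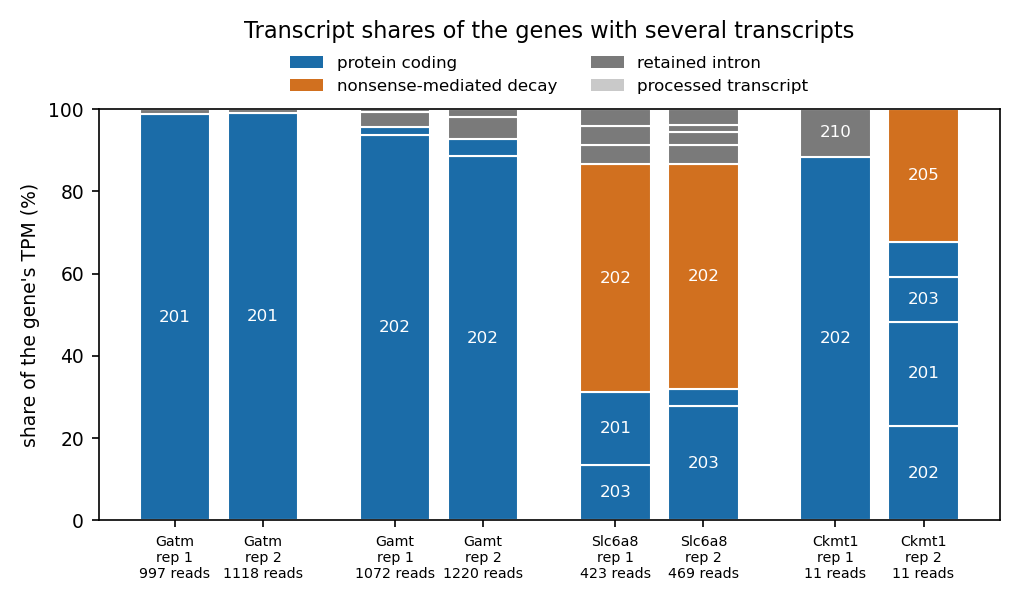
Share of each gene's TPM (%) by transcript in each library, coloured by GENCODE class, for the 4 genes with several transcripts; numbers in the bars are transcript suffixes and reads per gene stand below. The decay-class share of Slc6a8 is 55.6% and 54.7%, while the Ckmt1 bars, from 11 reads each, differ between libraries.

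The transporter was lower than either synthesis enzyme. Gatm exceeded Slc6a8 by 2.82-fold and 2.73-fold, and Gamt exceeded it by 7.80-fold and 7.76-fold. These ratios use whole-gene TPM, of which protein-coding transcripts took 31.1% and 32.0% for Slc6a8. The coding share was 98.9% and 99.0% for Gatm, and 95.6% and 92.8% for Gamt. Ckmt2 was above Slc6a8 by 2.14-fold and 1.67-fold, and Gatm above Ckmt2 by 1.32-fold and 1.64-fold. The kinase sum was 7.07 times the synthesis sum of 56.4 and 68.9 TPM in each library. Ckb and Ckm together were 72.8 and 72.5 times Slc6a8.

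In order of mean TPM the 7 genes ran Ckb, Ckm, Gamt, Gatm, Ckmt2, Slc6a8 and Ckmt1. Of these neighbours, Ckb and Ckm were the only pair whose values overlapped across the libraries. A pair was called different when its deposited intervals were apart, in the same direction, in each library. By this rule 21 of 21 member pairs were called, against 88.8% of all pairs of the 16300 protein-coding genes above 0 TPM in both libraries, so the count says little about these genes in particular. At 1 TPM or more in both libraries were 6 of 7 members, against 57.3% of protein-coding genes. At 10 TPM or more were 5 of 7, against 33.9%.

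**Figure D3:**
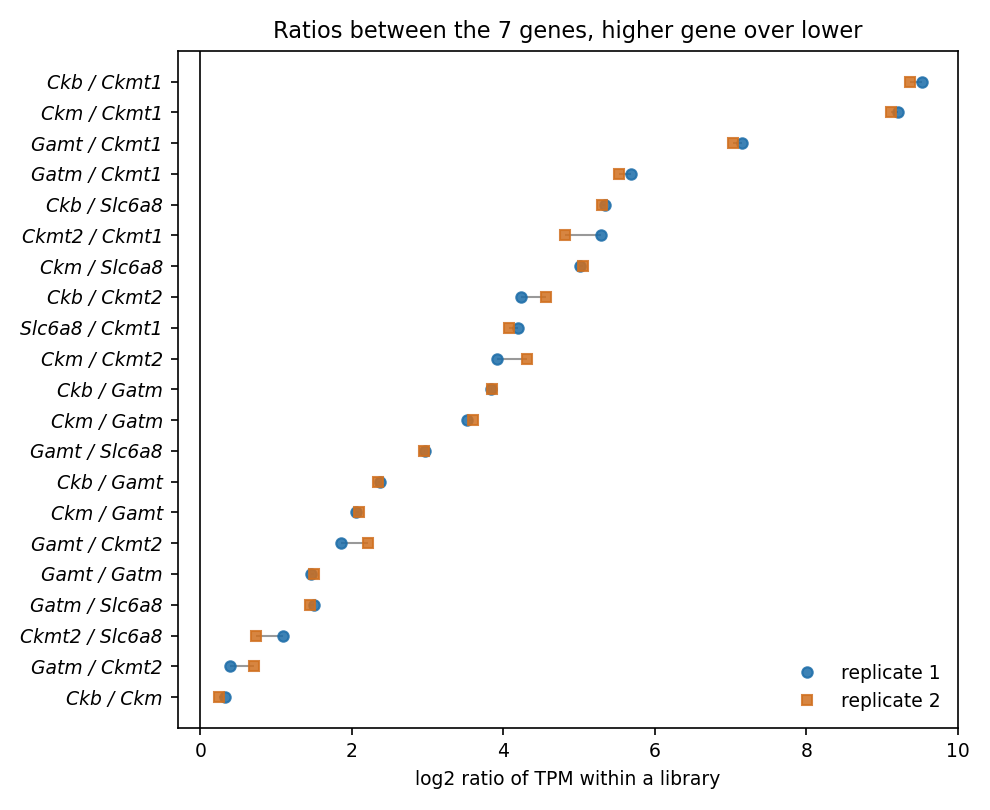
Log2 ratio of TPM within replicate 1 (blue circles) and replicate 2 (orange squares) for the 21 pairs, written as the higher gene over the lower. Every point is above 0, and the widest gaps between libraries are in pairs with Ckmt2, such as Ckmt2 over Ckmt1 at 5.29 and 4.81.

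Related enzymes place these levels in the wider pathway. The list of 18 other phosphotransfer genes holds enzymes that move phosphate among adenine and other nucleotides. It also holds the AMP deaminases Ampd1, Ampd2 and Ampd3, which are not phosphotransfer enzymes. Of the 18, 13 were at 1 TPM or more in both libraries, with a median of 30.5 TPM against 3.07 for all protein-coding genes. Nme2, a nucleoside diphosphate kinase, was at 254 and 294 TPM. Ak1, the cytosolic adenylate kinase, was at 234 and 260 TPM, and Ak6 at 179 and 215 TPM. Ak7, Ak8, Ak9 and the muscle AMP deaminase Ampd1 were below 1 TPM in both libraries. Ak1 exceeded Ckm by 1.36-fold and 1.20-fold. Ckb and Ak1 could not be separated by the interval rule (log2 ratio −0.07 ± 0.08, SD, n = 2).

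Carriers that work beside the mitochondrial kinases were far more abundant than the kinases. Of 7 mitochondrial exchange proteins, 6 were at 1 TPM or more in both libraries, with a median of 355 TPM. The adenine nucleotide carrier Slc25a4 was at 1260 and 1488 TPM and its relative Slc25a5 at 749 and 907 TPM, a ratio of 1.68 and 1.64. The phosphate carrier Slc25a3 was at 623 and 733 TPM, and the outer membrane channel Vdac2 at 321 and 388 TPM. Slc25a31, the germ cell form, was at 0.67 and 1.20 TPM, and was named after its values were seen. Slc25a4 stood 111-fold and 136-fold above Ckmt2. Against the sarcomere, the cardiac actin Actc1 exceeded Ckb by 41.2-fold and 40.7-fold, Ckm by 51.5-fold and 48.2-fold, and Ckmt2 by 779-fold and 958-fold.

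Genes that supply the precursors ranged widely in level. Gatm needs arginine and glycine and releases ornithine. Of 10 genes of arginine supply and use, 5 were at 1 TPM or more in both libraries, with a median of 1.39 TPM. Oat, which breaks down ornithine, was highest at 131 and 151 TPM, followed by the argininosuccinate lyase Asl at 15.3 and 15.6 TPM, the arginine transporter Slc7a1 at 11.9 and 13.3 TPM, and the argininosuccinate synthase Ass1 at 8.12 and 10.3 TPM. The other 5 were below 1 TPM in both.

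Gamt needs S-adenosylmethionine as its methyl donor. Of 17 genes of methyl and glycine supply, 12 were at 1 TPM or more in both libraries, with a median of 9.21 TPM. Mat2a, the catalytic subunit that makes S-adenosylmethionine outside the liver, was at 177 and 191 TPM and its regulatory partner Mat2b at 82.7 and 93.6 TPM. Shmt2, a mitochondrial enzyme that makes glycine from serine, was at 52.8 and 61.4 TPM, and Ahcy, which removes the methylation by-product S-adenosylhomocysteine, at 37.9 and 40.6 TPM. Mat1a, the liver form of the synthetase, was at 0.24 and 0.41 TPM, and Bhmt2 and Cbs were also below 1 TPM in both libraries.

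Slc6a8 was among a minority of its family in being expressed. Of 20 other genes, which are further SLC6 sodium-coupled transporters and the creatine exporter Slc16a12, 5 were at 1 TPM or more in both libraries, and the median was 0.10 TPM. The taurine transporter Slc6a6 was highest at 25.6 and 27.7 TPM, 4.82-fold and 4.23-fold above Slc6a8. Slc16a12 was at 12.3 and 17.2 TPM, the glycine transporter Slc6a9 at 8.20 and 6.79 TPM, and Slc6a13 at 6.58 and 7.50 TPM. The other 15 were below 1 TPM in both libraries, and 2 were listed at 0 in both.

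**Figure D4:**
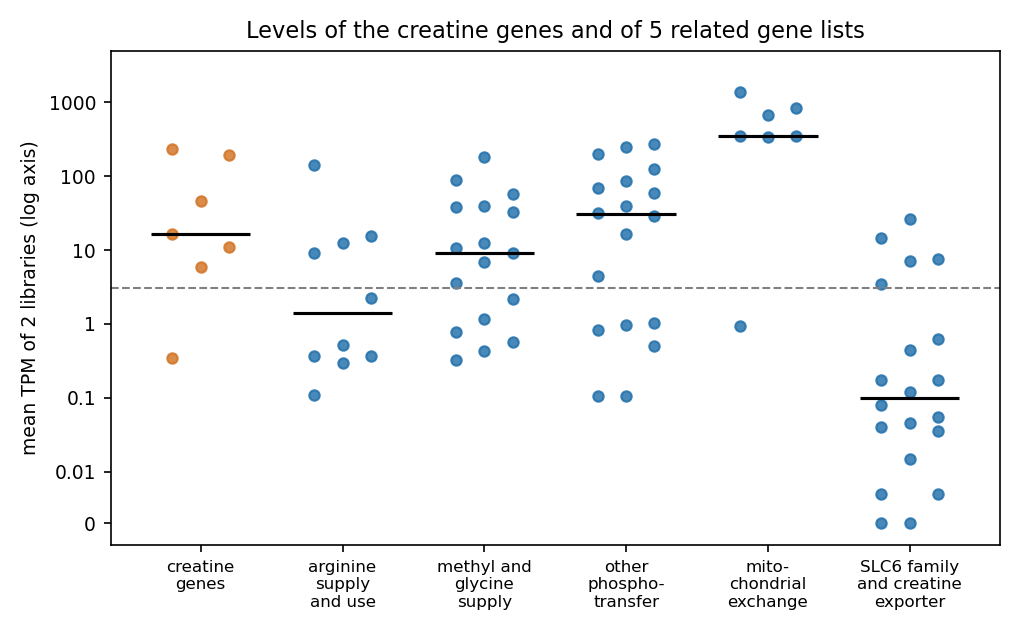
Mean TPM of the 2 libraries (log axis, with genes at 0 drawn at the tick marked 0) for each creatine gene (orange) and each gene of 5 related lists (blue); black bars are list medians and the dashed line is the median of all protein-coding genes, 3.07 TPM. The exchange proteins have the highest median, 355 TPM, and the SLC6 list the lowest, 0.10 TPM.

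The 6 creatine genes tested stayed under 1.5-fold between the libraries, as did most genes. After scaling the counts (TMM), the log2 ratio of replicate 2 over replicate 1 was 0.12 for Ckb, 0.20 for Ckm, −0.20 for Ckmt2, 0.10 for Slc6a8, 0.14 for Gamt and 0.12 for Gatm. Ckmt1, with a mean of 11 scaled reads, was under the minimum of 50. Of the 6 genes tested, 0 reached 1.5-fold, against 3.39% of 13760 genes tested, 1.80% higher and 1.59% lower in replicate 2. With so few genes, this count says little about them in particular. Each of the 6 moved more than the median gene tested, whose absolute log2 ratio was 0.097. The share of genes tested with a smaller absolute ratio ran from 52.6% for Slc6a8 to 77.6% for Ckm. The median over all genes tested was −0.003, with an interquartile range of −0.11 to 0.09. Ckm was above 90.1% of the genes tested and Ckmt2 above 12.7%, so the muscle kinase and the sarcomeric mitochondrial kinase lay on opposite sides of it. With spike-ins as the scale every member ratio was above 0, but so was the median, at 1.29, and Ckm at 1.49 and Ckmt2 at 1.09 kept their sides of it. With 1 library on each side, no replicate check of these differences exists. Of the 72 genes of the 5 related lists, 41 met the minimum count. None of these 41 reached 1.5-fold, against the same 3.39% of all genes tested, so this count also says little. The other list genes had too few reads to be tested.

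Some markers of other tissues passed 1.5-fold between the libraries. Of 11 liver markers, 8 were at 1 TPM or more in both, and 10 of 10 tested were at least 1.5-fold higher in replicate 2, with sums of 99.4 and 529 TPM. All 10 erythroid markers were at 1 TPM or more, with sums of 36812 and 22345 TPM, and of 10 tested 3 were higher and 4 lower in replicate 2. Of 9 skeletal muscle markers tested, 2 were higher in replicate 2. Liver is a known site of Gamt expression. In these libraries the log2 ratio of Gamt was 0.14, above 84.3% of the genes tested, and the median of the liver markers was 2.64. A liver share of the Gamt reads cannot be read from these values, because Gamt in liver was not measured here. The part of these cells in the ratios of the creatine genes was not tested.

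**Figure D5:**
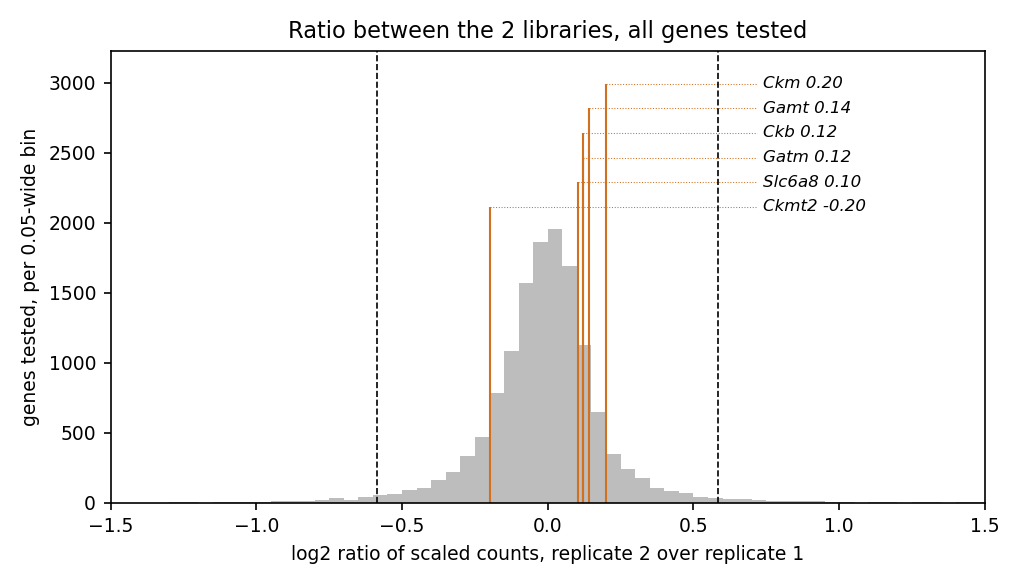
Log2 ratio of TMM-scaled counts, replicate 2 over replicate 1, for the genes tested (grey bars, number of genes per bin), with the 6 tested creatine genes as orange lines and 1.5-fold as dashed lines; 76 genes lie beyond the plotted range. All 6 lines fall between the dashed lines, 5 at or above 0.10 and Ckmt2 at −0.20.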

How the data were processed

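Total RNA-seq of 2 libraries of embryonic day 13.5 mouse heart, replicates 1 and 2 of 1 group, was read from deposited gene and transcript tables. Per the file headers, the deposited expected counts are reads per gene or transcript estimated by the authors, without normalization. TPM values were deposited as the authors scaled them, over all features including spike-ins. The percent columns of the deposited transcript tables are the share of a gene's TPM. Other deposited columns hold posterior means and interval bounds, whose level is not stated. Build mm10 and annotation M4 are given per the deposited file descriptions; the aligner and quantifier were not given in the sources used here. Extraction was with mirVana, and a linked manual names a SMARTer Ultra Low kit, per the labels' protocols.

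Identifiers were matched to GENCODE M21 on GRCm38 (42462 of 43346 genes). Library sizes left out 96 spike-ins and 26248 numbered features. Over all features the libraries held 36733400 and 36060765 reads, and over Ensembl genes, the library sizes used, 34545778 and 35137136. At this depth 11 reads, as in Ckmt1, leave a wide counting interval. Expected counts were rounded and scaled with edgeR 4.0.16 (TMM; DESeq2 1.42.0 as an alternative; R 4.3.3), with 0.5 added and a mean of at least 50. In a simulation with an assumed spread, a small part of the genes was changed, and 13743 genes met the minimum count. Shares of 1 and 0.9388 of genes changed by 1 and −1 on the log2 scale passed 1.5-fold, against 0.0147 of unchanged genes. Between the real libraries 3.39% of genes passed. The simulated libraries thus differed less than the real ones, and these shares check the calculation only. Identity and shared windows used GENCODE M21 transcripts (Biopython 1.88), which differ from the transcripts quantified. For Ckm the M21 transcript used for identity has 2742 nt, while the 1 Ckm transcript of the files has 1415 nt. Shared windows were counted over every M21 transcript of a gene. Python 3.11.15 was used with pandas 2.3.3, numpy 2.4.6, matplotlib 3.10.9 and scipy 1.17.1. The transcript with the longest coding sequence stood for each kinase.

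The members and gene lists were chosen with earlier results of these data known. The members, the listed ratios, each list's 4 highest genes and its members below 1 TPM in both libraries (where 4 or fewer), the markers, and the genes next to a member in level could be named. Of each list's 4 highest genes, all but 1 are reported here. Alternatives covered the TPM estimate and its denominator, thresholds, scaling, pseudocounts, isoform shares and leaving out either replicate. Separate entries under 1 donor entry are all that is stated of how the replicates were separated.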

Additional observations from a re-analysis of the deposited data

How the results depend on the processing

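The direction of the 21 member ratios held under every alternative run. Leaving out a replicate could not change it, since both libraries had the same direction for each pair. The other alternatives, posterior means and counts per annotated length, used the same reads. The call holding is no further check. It rests on the deposited intervals, which no alternative changed, and leaving out a replicate only eases the rule. The summed kinase TPM of 443 became 660 over protein-coding genes without globins and mitochondrial genes. It was between 398 and 487 with 1 replicate left out, and the log2 ratio of Ckb over Ckm was then between 0.25 and 0.32. For Slc6a8-202 the posterior share was 49.9%. Ckb and Ak1 were called apart only without replicate 2, at −0.12. The counts of genes 1.5-fold higher and lower in replicate 2, 248 and 219, became 13629 and 11 on the spike-in scale, where Ckmt1 and Ckmt2 turned to 1.19 and 1.09 and the other 5 members lay between 1.39 and 1.49, beside a median of 1.29 over the genes tested. They became 480 and 145 for TPM ratios, 898 and 833 at a mean count of 10, 58 and 38 at 200, and 101 and 37 at 2-fold. Of the called genes 53.1% were higher, against 99.9% on the spike-in scale, 76.8% for TPM and 73.2% at 2-fold. At 10 TPM, 3 arginine, 7 methyl and glycine, and 2 SLC6 list genes passed. The cause of the shifts with scaling was not tested. Leaving out a replicate gives no ratio between libraries. No paired analysis was possible because there is only 1 group. Depth limits Ckmt1 most, with 11 reads in each library.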
